A study of Homo sapiens with 8 samples.

Results

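Genes that supply cells with serine, asparagine, proline, one-carbon units and cystine, 10 in number, were followed through the deletion of enhancers in EA.hy926 cells. They are ASNS, PHGDH, PSAT1, PSPH, SHMT2, MTHFD2, ALDH1L2, PYCR1, SLC7A11 and SLC7A5. The 10 genes were selected by name, with earlier results of these same libraries known, so their changes against control, and the counts of those past the thresholds of the comparison of all genes, are given as a description and are not evidence for the choice. All 10 were found among the 27946 genes of the table, and all 10 were among the 13790 genes with enough signal to be compared. EA.hy926 is an immortalized human line made by fusing umbilical vein endothelial cells with cells of a lung carcinoma. The groups were 2 libraries of control cells, 3 clonal lines in which Cas9 had removed the enhancer E2 (ΔE2), and 3 in which it had removed SE12313-b (ΔSE12313-b), both of them constituents of the super-enhancer SE12313 on chromosome 16. Cells of all 3 groups were grown in high-glucose DMEM with fetal bovine serum. Every clonal line descends from a single cell, and the labels do not say whether the control libraries came from separate cultures. The spread between replicates is thus that between clones in the deletions and may be technical in the control. For its proliferation assay, the paper names a control line treated with guide RNA, and no cloning step is given for it. Cloning from a single cell and deletion therefore go together in each comparison with control, and their separate parts were not tested.

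Serine is made from a glycolytic intermediate by PHGDH, PSAT1 and PSPH in turn. SHMT2 then cleaves it in mitochondria to glycine and a one-carbon unit carried on folate, which MTHFD2 oxidizes and ALDH1L2 can release as carbon dioxide, while SHMT1, MTHFD1 and ALDH1L1 act on the same carriers in the cytosol. ASNS makes asparagine from aspartate, PYCR1 completes the synthesis of proline in mitochondria, SLC7A11 exchanges cystine for glutamate, and SLC7A5 carries leucine and other large neutral amino acids. Both transporters work as heterodimers with SLC3A2. Many of these genes are textbook targets of ATF4, the transcription factor whose translation increases when amino acids run short or proteins misfold.

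Values are FPKM, the reads per kilobase of transcript scaled to the reads of the library. They allow for transcript length and depth but not for a shift in the make-up of a library. Comparisons between libraries therefore depend in part on the scaling, as given further below. The libraries held 12067556 to 19101150 reads. Log2 fold changes are differences on the log2(FPKM + 0.1) scale from limma, with a standard error, and a DEG had a Benjamini-Hochberg adjusted p under 0.05 over all genes compared and a change of at least 2-fold. The median log2 fold change of all genes was 0.14 in ΔE2 and 0.27 in ΔSE12313-b. Between the control libraries the reads differed by little more than counting noise (chi-square per degree of freedom 1.19), while the clones of ΔE2 gave 4.0 to 20.7 and those of ΔSE12313-b 8.41 to 22.9. Of 12 endothelial markers, 9 were at 0.5 FPKM or more in every library, whereas KDR and CLDN5, the receptor for VEGF and a tight junction protein, were under it in all 8. Summed, the endothelial markers came to 474 to 476 FPKM per control library, 527 to 760 per ΔE2 clone and 518 to 727 per ΔSE12313-b clone. All 6 clones lay above both controls for 6 of the 12 (PECAM1, TEK, ERG, ESAM, EGFL7 and ENG) and below both for VWF and TIE1. Among 9 airway epithelial markers only the keratins KRT7, KRT8 and KRT18 reached 0.5 FPKM in every library, and the sum of the list was 361 to 363 FPKM per control library, 1080 to 1210 per ΔE2 clone and 811 to 1070 per ΔSE12313-b clone. That sum was almost wholly these keratins. EPCAM went the other way at a low level, from 0.554 and 0.243 FPKM in the controls to 0.215 or less in every clone. CDH1, KRT19, SFTPB, SFTPC and NKX2-1 were at or near 0 throughout, as were all 6 fibroblast and smooth muscle markers and PTPRC, CD14 and CD3E of the leukocyte markers. The summed leukocyte list was 0.110 to 0.313 FPKM per control library, 0.693 to 2.68 per ΔE2 clone and 0.082 to 0.249 per ΔSE12313-b clone. In the controls and ΔE2 the sum was almost wholly LYZ, a lysozyme, at 0.313 and 0.110 FPKM in the controls and 0.693, 2.67 and 1.60 in ΔE2. In ΔSE12313-b clone 1, LYZ and CD14 were each at 0.041 FPKM. These marker sums differed between clones and controls, that of leukocytes in ΔE2, and their part in the results below was not tested.

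Most of the 10 genes were lower in the clones of both deletions, and PSPH was the exception. In bulk RNA, fewer cells that express a gene and less of its RNA per cell cannot be told apart. In ΔE2, 4 of them were downregulated DEGs (ASNS, PSAT1, ALDH1L2 and SLC7A11), where 8.36% of all genes were, and 0 were upregulated DEGs, where 11.2% of all genes were. In ΔSE12313-b, 6 were downregulated DEGs (the same 4 with PHGDH and SLC7A5), against 7.83% of all genes, and 0 were upregulated DEGs, against 14.7%. Whatever the size of the change, an adjusted p under 0.05 and a lower level was found for 7 of the 10 in ΔE2 (19.4% of all genes) and 8 in ΔSE12313-b (16.4%), and a higher level for PSPH alone in each (34.7% and 43.0% of all genes). All 3 clones lay below both controls for 8 of the 10 in ΔE2 (28.7% of all genes) and for 8 in ΔSE12313-b (23.8%). The shares of all genes are the background, from which nothing is read, since the genes were chosen with these comparisons known. The median log2 fold change of the 10 was -0.92 in ΔE2 and -1.14 in ΔSE12313-b. PSAT1 (2.02-fold lower in ΔE2) stood just inside the 2-fold limit and PHGDH (1.99-fold lower) just outside it. Both deletions were compared with the same 2 control libraries.

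**Figure D1:**
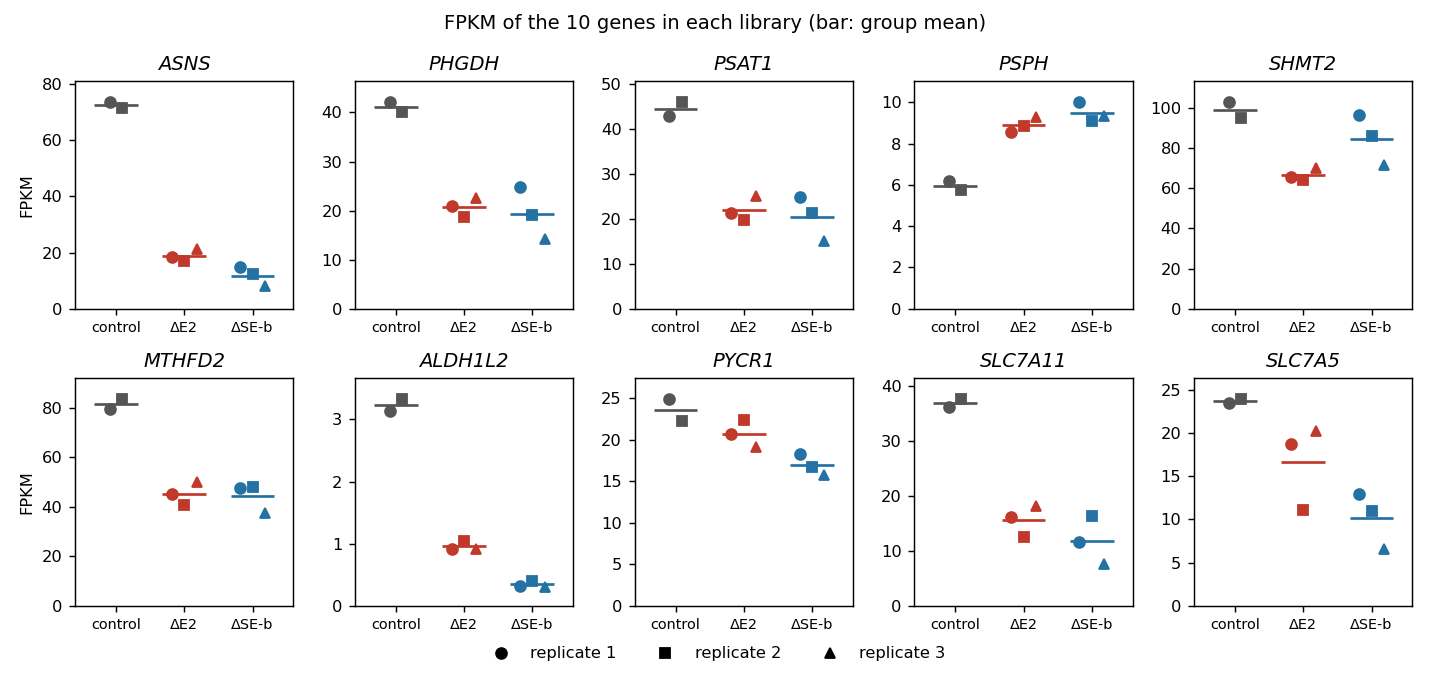
FPKM (vertical axis, linear from 0) of the 10 genes in each library of the control, ΔE2 and ΔSE12313-b (shown as ΔSE-b), with replicates as separate symbols and a bar at the group mean. ASNS and ALDH1L2 form 3 separate levels, PSPH is the only gene whose clones all lie above the controls, and SHMT2 in ΔSE12313-b (71.6 to 96.4 FPKM) reaches the controls (95.3 and 103).

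ASNS, the asparagine synthetase, had the largest change of the 10 in ΔE2 and stood at 3 separate levels. In the control it was at 73.8 and 71.5 FPKM, in the ΔE2 clones at 18.4, 16.8 and 21.2, and in the ΔSE12313-b clones at 14.8, 12.3 and 8.11. All clones lay far below the controls, and no ΔSE12313-b clone reached the lowest ΔE2 clone. The level was 3.86-fold lower in ΔE2 (log2 fold change -1.95, standard error 0.23) and 6.32-fold lower in ΔSE12313-b (-2.66, standard error 0.23). The ASNS transcript that was kept lies on the minus strand of chromosome 7, from 97481429 to 97501477 in GRCh37 (7q21.3), and carried 1585 and 1459 reads in the controls and 218 to 594 in the clones. It is overlapped along its whole length by CZ1P-ASNS, a readthrough transcript on the same strand, so the division of reads between the pair is uncertain. Over the 7 ASNS transcripts listed, the log2 fold change lay between -1.98 and -1.94 for ΔE2 and between -2.66 and -2.61 for ΔSE12313-b. The median of the 116 genes compared within 5 Mb was -0.07 and 0.09.

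The RefSeq promoter table (GRCh38.p14) held windows for 5 of the 10 genes, namely ASNS, PHGDH, PSAT1, MTHFD2 and SLC7A5. PSPH, SHMT2, ALDH1L2, PYCR1 and SLC7A11 had no entry. In the 250 bases before each RefSeq start site, on either strand, 3 sets of letters were sought. For PHGDH, PSAT1 and MTHFD2, only 112, 200 and 198 of these bases lay before every listed transcript. The core of the C/EBP-ATF response element, TGATGNAA, through which ATF4 and its partners are known to act on ASNS, occurred in 1 of the 5 windows, that of ASNS, 68 bases before the start site. It is found in 3.19% of all 27305 promoters and in 1.43% of the 9752 that belong to genes compared here. The antioxidant response element core TGACNNNGC occurred in 0 of the 5 (11.0% of all promoters, 12.0% of those of genes compared). The E-box CACGTG occurred in 1, that of SLC7A5, 130 bases before the start (6.49% and 9.2%). No match means only that these letters are absent from these windows. The stretches of ASNS, PHGDH and PSAT1 are shown because ASNS holds the element and the others, which were lower in both deletions, do not hold these letters. That of ASNS lies within the first exon of some of its listed transcripts and is therefore limited to the element and its flanks, and those of PHGDH and PSAT1 end before the first base of every listed transcript. The position in GRCh37 was found by matching the RefSeq sequence to that build. Capitals mark the C/EBP-ATF core.
ASNS (chr7:97501770-97501799, minus strand, 30 bases): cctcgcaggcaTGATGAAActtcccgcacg
PHGDH (chr1:120254307-120254418, plus strand, 112 bases): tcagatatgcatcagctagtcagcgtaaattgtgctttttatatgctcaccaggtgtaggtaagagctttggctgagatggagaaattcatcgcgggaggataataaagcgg
PSAT1 (chr9:80911791-80911990, plus strand, 200 bases): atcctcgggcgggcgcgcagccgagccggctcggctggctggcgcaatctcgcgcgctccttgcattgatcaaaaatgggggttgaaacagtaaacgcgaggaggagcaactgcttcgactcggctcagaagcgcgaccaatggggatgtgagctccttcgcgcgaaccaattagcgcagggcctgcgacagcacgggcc

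The first enzymes of serine synthesis were lower in every clone, and the last was higher. PHGDH, the dehydrogenase that opens the pathway (chromosome 1, 120254419 to 120286849, plus strand), was at 42.2 and 40.1 FPKM in the control, at 20.9, 18.6 and 22.6 in ΔE2 and at 24.7, 19.1 and 14.2 in ΔSE12313-b. PSAT1, the aminotransferase of the next step (chromosome 9, 80911991 to 80945009, plus strand), was at 43.0 and 46.1 FPKM in the control, at 21.3, 19.8 and 25.0 in ΔE2 and at 24.7, 21.3 and 15.0 in ΔSE12313-b. Although they lie on different chromosomes, the 2 genes ran almost in parallel, and the ratio of PHGDH to PSAT1 stayed between 0.87 and 0.999 in all 8 libraries. The log2 fold change of PHGDH was -0.99 in ΔE2 and -1.12 in ΔSE12313-b (standard error 0.21 each), and that of PSAT1 was -1.02 and -1.15 (standard error 0.20 each). The clones of the deletions overlapped for both genes.

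PSPH, the phosphatase that releases serine (chromosome 7, 56078744 to 56119268, minus strand), went the other way. It was at 6.17 and 5.74 FPKM in the control, at 8.54, 8.84 and 9.27 in ΔE2 and at 10.0, 9.09 and 9.31 in ΔSE12313-b, with every clone above both controls. The log2 fold change was 0.57 and 0.66 (standard error 0.09 each), or 0.43 and 0.39 relative to the median of all genes. The 12 genes compared within 5 Mb of PSPH had medians of 0.55 and 0.53, which PSPH exceeded by 0.02 and 0.13, and the part of these neighbours in its value was not tested. PHGDH was at 6.91 ± 0.0994 (SD, n = 2) times the level of PSPH in controls, 2.33 ± 0.193 (SD, n = 3) times in ΔE2 and 2.03 ± 0.477 (SD, n = 3) times in ΔSE12313-b. PSPH thus remained the lowest of the 3 enzymes in each library.

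The mitochondrial enzymes that handle one-carbon units differed widely in how far they were lowered. ALDH1L2, which oxidizes formyl-folate (chromosome 12, 105413562 to 105478341, minus strand), had the lowest level of the 10 in each group and, on the scale used here, the largest change in ΔSE12313-b. It was at 3.13 and 3.33 FPKM in the control, at 0.920, 1.05 and 0.919 in ΔE2 and at 0.314, 0.404 and 0.310 in ΔSE12313-b, which stand for 299 and 302, then 132, 135 and 94, then 38, 45 and 37 reads. The groups formed 3 levels without overlap, 3.14-fold lower in ΔE2 (log2 fold change -1.65, standard error 0.20) and 7.56-fold lower in ΔSE12313-b (-2.92, standard error 0.20). With a pseudocount of 1 these became -1.11 and -1.66, since the pseudocount shrinks the change of a low gene. ASNS then had the larger change in ΔSE12313-b (-2.57), as it did with quantile normalization (-3.11 against -2.92 for ALDH1L2).

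MTHFD2, the dehydrogenase and cyclohydrolase of the same chain (chromosome 2, 74425690 to 74442424, plus strand), was at 79.4 and 83.6 FPKM in the control, at 45.2, 40.8 and 50.0 in ΔE2 and at 47.6, 47.9 and 37.3 in ΔSE12313-b. Every clone was lower, by 1.80-fold and 1.85-fold on average (log2 fold change -0.85 and -0.89, standard error 0.13 each), and the deletions overlapped. MTHFD2 became a DEG in both with each library centred on its median ratio, with quantile normalization and with voom. SHMT2 (chromosome 12, 57624111 to 57628718, plus strand) was the highest of the 10 in every group, at 103 and 95.3 FPKM in the control, at 65.8, 64.1 and 70.3 in ΔE2 and at 96.4, 85.9 and 71.6 in ΔSE12313-b. The ΔE2 clones lay below both controls (log2 fold change -0.57, standard error 0.12), whereas one ΔSE12313-b clone lay between the controls (-0.24, standard error 0.12). The value in ΔSE12313-b depended on the scaling and was -0.53 with each library centred, -0.79 with quantile normalization and -0.50 with voom.

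The cytosolic partners of these enzymes, named whatever their values, moved differently. SHMT1 rose from 1.40 ± 0.0912 FPKM (SD, n = 2) to 6.75 ± 0.430 in ΔE2 and 8.24 ± 0.454 in ΔSE12313-b (SD, n = 3 each), with log2 fold changes of 2.19 and 2.48 (limma adjusted p = 2.08e-06 and 1.1e-06). MTHFD1 rose from 20.4 ± 0.112 to 56.3 ± 1.91 and 71.6 ± 8.42 FPKM, with log2 fold changes of 1.46 and 1.80 (limma adjusted p = 1.47e-05 and 3.99e-06). ALDH1L1 fell like its mitochondrial relative, from 5.45 ± 0.520 to 2.14 ± 0.486 and 1.12 ± 0.355 FPKM, with log2 fold changes of -1.33 and -2.22 (limma adjusted p = 0.00457 and 0.000282). The mitochondrial MTHFD1L was no DEG in either deletion (log2 fold change 0.22 and -0.51), nor was MTHFD2L (0.55 and 0.27). SHMT2 was at 70.6 and 71.4 times the level of SHMT1 in the controls but at 9.71 to 10.2 times in ΔE2 and 9.16 to 11.8 times in ΔSE12313-b. MTHFD2 was at 3.92 and 4.09 times the level of MTHFD1 in the controls and below it in all clones, at 0.752 to 0.860 times in ΔE2 and 0.459 to 0.719 times in ΔSE12313-b.

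**Figure D2:**
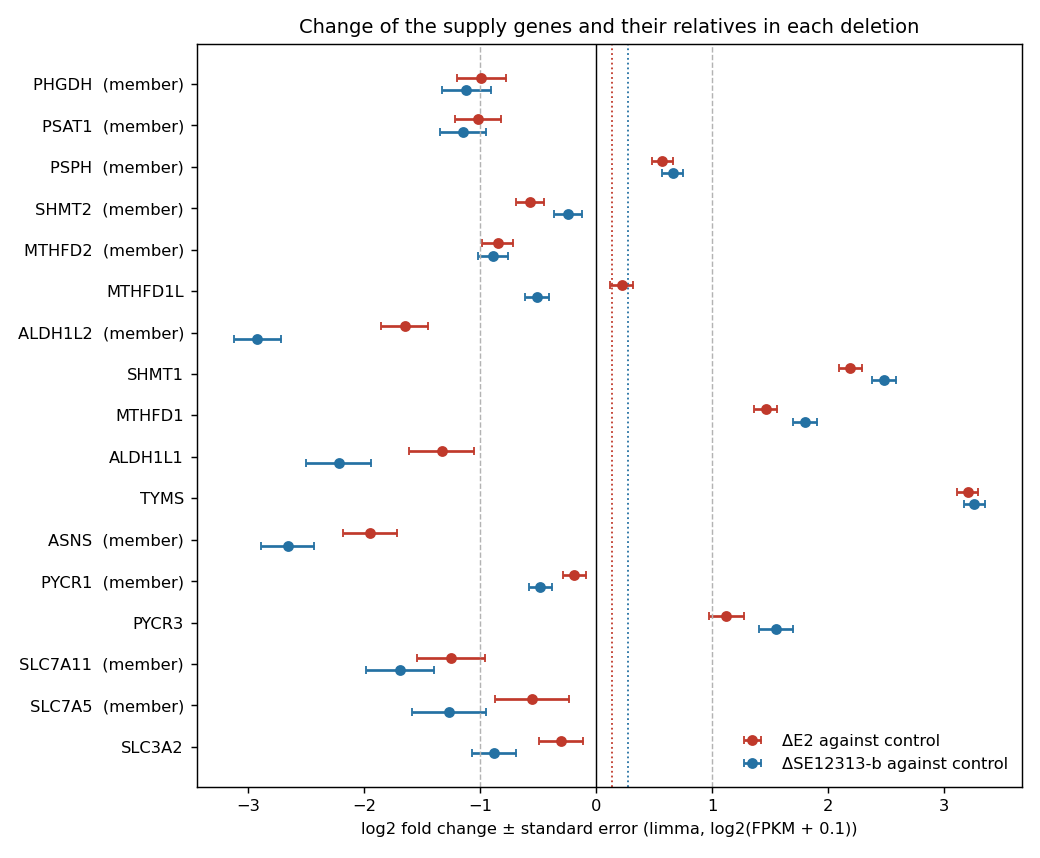
Log2 fold change (horizontal axis, limma on log2(FPKM + 0.1), bars are the standard error) of the 10 genes, marked as members, and of related genes in ΔE2 and ΔSE12313-b against control. Dashed lines stand at 2-fold and dotted lines at the median of all genes (0.14 and 0.27). SHMT1, MTHFD1 and TYMS lie to the right, between 1.46 and 3.26, whereas ASNS and ALDH1L2 lie furthest to the left.

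PYCR1, the reductase that makes proline (chromosome 17, 79890262 to 79895204, minus strand), had the smallest log2 fold change of the 10 in ΔE2, though not with quantile normalization (-0.49, against 0.40 for PSPH). It was at 24.9 and 22.2 FPKM in the control, at 20.7, 22.3 and 19.2 in ΔE2 and at 18.3, 16.7 and 15.7 in ΔSE12313-b. The ΔE2 clones overlapped the controls (log2 fold change -0.19, standard error 0.10), and the ΔSE12313-b clones lay below both (-0.48, standard error 0.10). With each library centred these became -0.34 and -0.77. PYCR3, the cytosolic form, rose from 3.24 ± 0.212 FPKM (SD, n = 2) to 7.19 ± 0.857 and 9.75 ± 1.55 (SD, n = 3 each), with log2 fold changes of 1.12 and 1.55 (limma adjusted p = 0.000598 and 9.11e-05).

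Of the transporters, SLC7A11 (chromosome 4, 139085248 to 139163503, minus strand) was at 36.2 and 37.7 FPKM in the control, at 16.2, 12.5 and 18.2 in ΔE2 and at 11.6, 16.4 and 7.66 in ΔSE12313-b. Each clone was at under 20 FPKM and the deletions overlapped, with log2 fold changes of -1.25 and -1.69 (standard error 0.29 each). The 15 genes compared within 5 Mb of SLC7A11 had medians of 0.55 and -0.04. Between the deletions (ΔE2 minus ΔSE12313-b) their median was 0.57, which SLC7A11 fell short of by 0.13. The part of these neighbours in its values was not tested. The antisense transcript SLC7A11-AS1, which overlaps it, had a mean of 0.028 FPKM. SLC7A5 (chromosome 16, 87863622 to 87903105, minus strand) was at 23.5 and 23.9 FPKM in the control, at 18.7, 11.1 and 20.2 in ΔE2 and at 13.0, 10.9 and 6.54 in ΔSE12313-b. All clones lay below both controls, but ΔE2 clone 2 stood apart from the other two, and the log2 fold changes were -0.55 and -1.27 (standard error 0.32 each). Without ΔE2 clone 2 the value in ΔE2 was -0.29. SLC7A5 lies on 16q, the arm that carries the deletions, and the 73 genes compared within 5 Mb of it had medians of 0.01 and -0.16.

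SLC3A2, the heavy chain that both transporters need, was at 94.8 ± 0.368 FPKM (SD, n = 2) without a deletion, at 77.9 ± 13.3 FPKM after that of E2 and at 52.1 ± 9.93 FPKM after that of SE12313-b (SD, n = 3 each). Its log2 fold changes of -0.30 (limma adjusted p = 0.208) and -0.88 (limma adjusted p = 0.00417) were both under 2-fold. The transcript kept for SLC3A2 was NR_037193, a RefSeq entry of the non-coding class, and its levels and the ratios below rest on that row. Within a library, SLC7A11 was at 0.381 and 0.399 times the level of SLC3A2 in the controls, 0.193 to 0.207 times in ΔE2 and 0.188 to 0.275 times in ΔSE12313-b, without overlap between controls and clones. SLC7A5 was at 0.247 and 0.253 times that level in the controls, and the clones, at 0.173 to 0.239 and 0.160 to 0.232 times, were lower by less. The pseudogene SLC7A5P2, which could share reads with SLC7A5, had log2 fold changes of -0.83 and -0.95 and was no DEG.

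**Figure D3:**
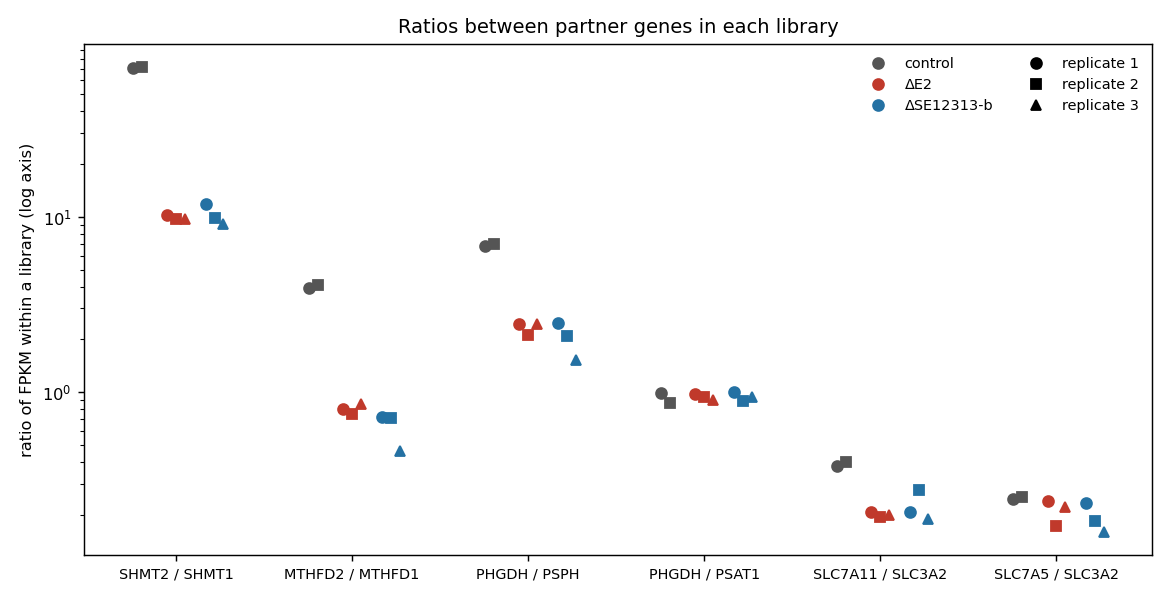
Ratios of FPKM between partner genes in each library (vertical axis, log scale), with groups by colour and replicates by symbol. SHMT2 to SHMT1, MTHFD2 to MTHFD1, PHGDH to PSPH and SLC7A11 to SLC3A2 are lower in all 6 clones than in both controls, whereas PHGDH to PSAT1 stays between 0.87 and 0.999.

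Whether the deletions differed from each other was tested directly between their clones. Of the 10 genes, 1 was a DEG between ΔE2 and ΔSE12313-b (4.23% of all genes), and 3 had an adjusted p under 0.05 (26.0% of all genes). ALDH1L2 was higher in ΔE2 by 1.27 on the log2 scale (standard error 0.17, limma adjusted p = 0.00225), with an adjusted p under 0.05 in all 18 alternatives. With a pseudocount of 1 the difference was 0.55, under 2-fold, and it was no DEG. ASNS was higher in ΔE2 by 0.71 (standard error 0.20, limma adjusted p = 0.0361) and PYCR1 by 0.29 (standard error 0.09, limma adjusted p = 0.0492). These were close to the threshold and kept an adjusted p under 0.05 in 10 and in 7 of the 18 alternatives, over which it ranged from 0.0116 to 0.113 and from 0.0156 to 0.12. For SLC7A5 (0.72, standard error 0.29), SLC7A11 (0.44, standard error 0.26) and SHMT2 (-0.33, standard error 0.11) the limma adjusted p was 0.107, 0.249 and 0.0573. PHGDH (0.13), PSAT1 (0.14), PSPH (-0.09) and MTHFD2 (0.04) differed by less than their standard error or not much more, with limma adjusted p between 0.416 and 0.84, which does not show that the deletions act alike on them. Of the related genes, MTHFD1L was higher in ΔE2 by 0.73 (limma adjusted p = 0.00138), and ALDH1L1 by 0.89 (limma adjusted p = 0.033).

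Within a deletion the 10 genes tended to be ordered alike over the clones. ΔSE12313-b clone 3 had the lowest level of the 3 clones for 9 of the 10, all but PSPH, where 39.6% of all genes compared were lowest in that clone. It lay below the mean of its group for 10 of 10, with a median deviation of -0.32 on the log2 scale, against -0.01 for all genes. In ΔE2, clone 2 was lowest for 7 of the 10 (38.8% of all genes) and clone 3 highest for 8 (40.8% of all genes), with median deviations of -0.15 and 0.14. This order describes 3 clones each and was not tested. Without ΔSE12313-b clone 3, ASNS, ALDH1L2 and SLC7A11 were the DEGs that remained in ΔSE12313-b, 3 in place of 6, and PHGDH, PSAT1 and SLC7A5 were under 2-fold.

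**Figure D4:**
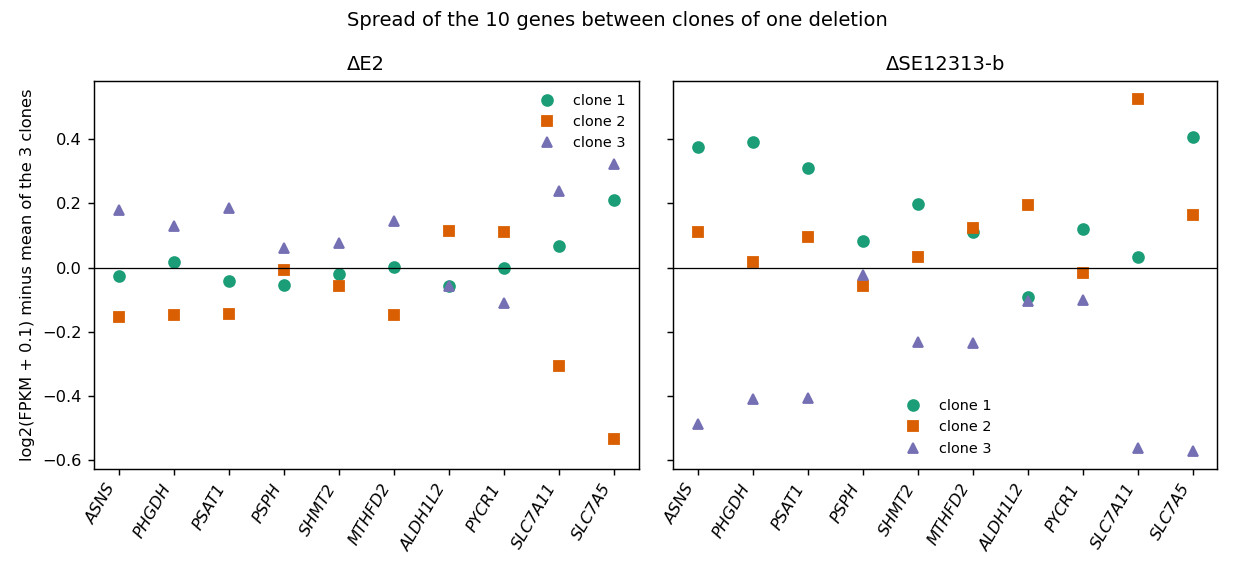
Deviation of each clone from the mean of the 3 clones of its deletion (vertical axis, log2(FPKM + 0.1)) for the 10 genes. ΔSE12313-b clone 3 lies below 0 for all 10 (median -0.32), and the largest deviations in ΔE2 are those of SLC7A5, with clone 2 at -0.53.

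The order of mean levels among the 10 differed between the groups, for some genes by small differences. ASNS held rank 3 of the 10 in the control (72.6 ± 1.65 FPKM, SD, n = 2), behind SHMT2 and MTHFD2, then rank 6 in ΔE2 (18.8 ± 2.24, SD, n = 3) and rank 7 in ΔSE12313-b (11.7 ± 3.39, SD, n = 3). PYCR1 moved up from rank 8 to ranks 4 and 5, although its mean level was no higher. Its mean was nearly that of SLC7A5 in the control (23.578 against 23.712 FPKM) and of PHGDH in ΔE2 (20.711 against 20.702), with overlapping libraries. SLC7A11 went from rank 6 to 8 in ΔE2, at 15.615 FPKM against 16.678 for SLC7A5 with overlapping clones, and was at 6 in ΔSE12313-b. SHMT2, MTHFD2, PSPH and ALDH1L2 kept their places. In the 3 groups, ASNS and ALDH1L2 were ordered control, ΔE2, ΔSE12313-b with no overlap. For PHGDH, PSAT1, MTHFD2, SLC7A11 and SLC7A5 the control stood apart and the deletions overlapped, for SHMT2 the control and ΔSE12313-b overlapped, and for PYCR1 the control and ΔE2 did.

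The genes whose pattern over the 8 libraries was most like that of a member were found from the root mean square difference of log2(FPKM + 0.1), each gene centred on its mean. For ASNS they were CZ1P-ASNS (0.037), which shares its reads, GABRE (0.182), a GABA receptor subunit, and LOC101927851 (0.213), which had 7 reads or fewer in each library. For PHGDH they were KMT5C (0.106), a histone methyltransferase, SLC9A5 (0.108), a sodium and proton exchanger, and NEURL2 (0.119), but PSAT1, itself a member, was nearer than any of these (0.0667). For SLC7A11 they were PILRB (0.114), MC1R (0.179), the melanocortin receptor, and WASH5P (0.192). All 8 libraries, and so the difference between controls and clones, enter each value.

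A list of 16 stress-response and related genes held kinases and transcription factors, along with TRIB3, SESN2 and KEAP1. It had 0 upregulated and 6 downregulated DEGs in ΔE2 and 1 and 7 in ΔSE12313-b (median log2 fold change 0.01 and -0.15). Among all genes, 11.2% were upregulated and 8.36% downregulated DEGs in ΔE2, and 14.7% and 7.83% in ΔSE12313-b. Nothing is read from these shares, since the list was chosen with earlier results known. ATF4 itself fell from 245 ± 3.19 FPKM (SD, n = 2) to 91.7 ± 7.84 and 83.3 ± 7.70 (SD, n = 3 each), with log2 fold changes of -1.42 and -1.56 (limma adjusted p = 2.05e-05 and 1.03e-05). TRIB3, a pseudokinase that ATF4 induces, fell from 183 ± 4.79 to 26.1 ± 1.55 and 38.7 ± 4.72 FPKM (log2 fold change -2.81 and -2.25). DDIT3, which encodes CHOP, went from 35.5 ± 2.70 to 14.6 ± 3.75 and 7.89 ± 1.84 FPKM (-1.30 and -2.18), and CEBPB, a partner of ATF4, from 27.7 ± 1.48 to 6.62 ± 1.20 and 9.88 ± 1.53 (-2.06 and -1.49). All 3 were DEGs in both deletions. Other genes of the list were higher, among them ATF5, at 0.81 and 1.04, a DEG in ΔSE12313-b only. The kinases EIF2AK4 (0.32 and 0.65) and EIF2AK3 (0.51 and 0.59) were higher by less than 2-fold, where the median of all genes was 0.14 and 0.27. FPKM of ATF4 is a level of mRNA, and its protein was not measured.

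The other genes of serine and glycine, 16 compared, had 4 upregulated and 2 downregulated DEGs in ΔE2 and 5 and 2 in ΔSE12313-b (median log2 fold change 0.18 and 0.21). The downregulated ones were CBS, which joins serine to homocysteine and fell from 8.49 ± 0.304 FPKM (SD, n = 2) to 0.949 ± 0.381 and 1.15 ± 0.236 (SD, n = 3 each; log2 fold change -3.09 and -2.79), and AMT of the glycine cleavage system (-2.88 and -2.37). SERINC3, the highest of the list, was no DEG, at 0.12 in ΔSE12313-b, which became -0.16 with each library centred. Of 19 folate genes, 5 were upregulated and 1 was downregulated in ΔE2, and 6 and 1 in ΔSE12313-b (median 0.48 and 0.45). For both lists, the shares of all genes were 11.2% upregulated and 8.36% downregulated in ΔE2, and 14.7% and 7.83% in ΔSE12313-b. TYMS, the thymidylate synthase, also known as a gene of S phase, rose from 12.6 ± 0.526 FPKM (SD, n = 2) to 117 ± 8.87 and 122 ± 8.18 (SD, n = 3 each; log2 fold change 3.20 and 3.26).

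For aspartate, asparagine, glutamine and alanine, 16 genes were compared, with 5 upregulated and 1 downregulated DEGs in ΔE2 and 3 and 1 in ΔSE12313-b (median log2 fold change 0.77 and 0.65). SLC25A13, the mitochondrial carrier of aspartate, rose by 1.82 and 1.87 on the log2 scale, GOT2, the mitochondrial aspartate aminotransferase, by 1.06 in ΔE2, and GPT2, the mitochondrial alanine aminotransferase, fell by 1.44 and 1.22. ASRGL1, an asparaginase with 1 and 6 reads in the controls, rose in ΔE2 from 0.123 ± 0.127 FPKM (SD, n = 2) to 1.21 ± 0.216 (SD, n = 3; log2 fold change 2.66) and was at 0.210 ± 0.0521 in ΔSE12313-b, a direct difference of 2.07 (limma adjusted p = 0.00713). Of 9 genes of proline and ornithine, PYCR3 and, in ΔSE12313-b, OAT (1.37) were upregulated and ARG2, a mitochondrial arginase, was downregulated (-1.24 and -1.31), with medians of 0.20 and 0.64. ODC1, the highest of them, was no DEG (0.58 and 0.65). Beside the counts of both lists stand 11.2% upregulated and 8.36% downregulated of all genes in ΔE2, and 14.7% and 7.83% in ΔSE12313-b.

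Of 14 genes of cystine and glutathione, 2 were upregulated and 2 downregulated in ΔE2, and 3 and 2 in ΔSE12313-b (median log2 fold change 0.04 and 0.61). CHAC1, which degrades glutathione and is known as a target of ATF4, fell from 5.99 ± 0.0849 FPKM (SD, n = 2) to 0.717 ± 0.234 and 0.637 ± 0.195 (SD, n = 3 each; log2 fold change -2.94 and -3.08), and its paralog CHAC2 rose (1.64 and 1.95). GPX4, the highest of them, was no DEG (0.06 and 0.14, both negative with each library centred). Among 18 other amino acid transporters there were 0 upregulated DEGs and 2 downregulated ones in each deletion (median 0.10 and -0.05). SLC1A4, which carries serine and alanine, fell in both (-1.32 and -1.55), SLC7A7 fell in ΔE2 (-2.53, standard error 0.78), where its clones ranged widely at 55, 207 and 23 reads, and SLC7A8 in ΔSE12313-b (-1.28), where 4, 3 and 2 reads were left. SLC7A8 differed between the deletions by 2.28 (limma adjusted p = 0.0038), at under 1 FPKM in each group. SLC38A2, the highest of them, was no DEG (0.11 and -0.06, the former -0.05 with each library centred). Again, 11.2% of all genes were upregulated and 8.36% downregulated DEGs in ΔE2, and 14.7% and 7.83% in ΔSE12313-b. Some genes stand in more than 1 of these lists.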

How the data were processed

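RNA depleted of ribosomal RNA from 8 EA.hy926 libraries was sequenced (NEBNext Ultra II Directional kit, which marks the strand). The authors trimmed reads with Trim Galore 0.4.4, aligned them with STAR 2.5.4b to GRCh37 and deposited FPKM for 65572 RefSeq transcripts. The tool behind the FPKM and its use of strand are not given in the sources used here. The authors' own calls rest on featureCounts, and those counts were not used here. Reads were recovered from FPKM and length (100% whole within 0.1 read) and served for depth, 7802376 to 13374180 reads on genes per library, and for voom.

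The table was reduced to 1 transcript a gene, that of the highest mean. Genes reaching 0.5 FPKM in 2 or more libraries were compared by limma 3.58.1 (R 4.3.3) with a variance trend and 3 groups in one model, two-sided, with a pseudocount of 0.1, after tests on simulated data. The simulated libraries had the same dispersion in every group, so they do not check the fit under unequal spread. The p-values measure the spread between these samples only. That spread was pooled over the groups, although the controls varied less than the clones (chi-square per degree of freedom 1.19 against 4.0 to 22.9). Spread between control cultures may thus be absent from the comparisons with control.

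The members and the lists were chosen with earlier results of these data known. Named genes were the 10 members, their paralogs or partners and ATF4, up to 3 DEGs with the largest change and the highest gene of each list, and the 3 genes nearest in pattern to ASNS, PHGDH and SLC7A11. ATF5, EIF2AK3 and EIF2AK4 were added as genes of a list that were higher. PYCRL is listed as PYCR3. Of 6 pseudogenes of the members, 2 were in the table and 1, SLC7A5P2, was compared. The alternatives were pseudocounts of 0.01 and 1, 2 other filters, centred libraries, quantile normalization, voom, a replicate block, the longest transcript, only the groups compared, a 1.5-fold limit and each library left out. Replicate numbers were taken as names only. The deletion sites were not analysed here. Some genes that the rule names are not reported here.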

Additional observations from a re-analysis of the deposited data

Results flagged for a closer look

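In the direct comparison of the clones, 3 of the 10 genes had an adjusted p under 0.05, where 26.0% of all genes did. ALDH1L2 was higher in ΔE2 than in ΔSE12313-b by 1.27 on the log2 scale (limma adjusted p = 0.00225), with a range of 0.55 to 1.61 over the alternatives. ASNS was higher in ΔE2 by 0.71 (limma adjusted p = 0.0361, range 0.47 to 0.90), and PYCR1 by 0.29 (limma adjusted p = 0.0492, range 0.24 to 0.42). ASNS and PYCR1 kept an adjusted p under 0.05 in only 10 and 7 of the 18 alternatives. For each of the 3 genes all ΔE2 clones lay above all ΔSE12313-b clones. The share of all genes separated in this way is not given here.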

How the results depend on the processing

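The members' single values kept their direction and their side of the threshold in 510 cases, turned in 7, were stronger in 11 and weaker in 12. All 7 turns were in the direct comparison. PSPH there became 0.04 with each library centred, 0.03 with quantile normalization and 0.02 with voom. With single libraries left out, PHGDH ranged from -0.07 to 0.33, PSAT1 from -0.07 to 0.29 and MTHFD2 from -0.08 to 0.11 (-0.03 without ΔE2 replicate 3), the negative values of -0.07, -0.07 and -0.08 being those without ΔSE12313-b replicate 3. With single libraries left out, 3 to 5 members were DEGs in ΔE2. PSAT1 fell under 2-fold without ΔE2 replicate 1, ΔE2 replicate 2 or control replicate 2, SLC7A11 was no DEG without control replicate 2, and PHGDH passed 2-fold without ΔE2 replicate 3 or control replicate 2. Those in ΔSE12313-b ranged from 3, without ΔSE12313-b replicate 3, to 6. In the direct comparison 0 members were DEGs with a pseudocount of 1 and 2 at 1.5-fold. Over all genes, a pseudocount of 1 left 1718 DEGs in ΔE2, 2004 in ΔSE12313-b and 240 between them, from 2697, 3112 and 583, and a 1.5-fold limit gave 5054, 5802 and 1631.

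Scaling moved the balance of all DEGs. Those that were upregulated made up 57.2% in ΔE2, 65.3% in ΔSE12313-b and 37.9% between them, and 44.4%, 43.3% and 54.0% with each library centred, 48.6%, 50.0% and 48.0% with quantile normalization and 43.0%, 43.4% and 49.7% with voom. With each of these, 6 members were downregulated DEGs in ΔE2 (PHGDH and MTHFD2 added) and 7 in ΔSE12313-b (MTHFD2 added), and SHMT2 in ΔSE12313-b and PYCR1 in ΔE2 also had an adjusted p under 0.05, at under 2-fold. With each library centred, with quantile normalization and with voom, SERINC3 in ΔSE12313-b became -0.16, -0.37 and -0.14, GPX4 -0.10, -0.38 and -0.10 in ΔE2 and -0.14, -0.43 and -0.12 in ΔSE12313-b, and SLC38A2 in ΔE2 -0.05, -0.33 and -0.04. MTHFD1L in ΔE2 became -0.08 with quantile normalization, and MTHFD2L in ΔSE12313-b -0.02 with each library centred and 0.00 with the longest transcript. Left-out libraries took ASRGL1 in ΔSE12313-b from -0.03 (without control replicate 1) to 1.20, and GPX4 in ΔE2 from -0.02 (without ΔE2 replicate 2) to 0.11. The cause of these turns was not tested.

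The labels number the replicates alike in each group, but the deviations of same-numbered libraries correlated between -0.08 and 0.107, so the pairing was not used. With a replicate block 3 members were DEGs in ΔE2, 6 in ΔSE12313-b and 1 between the deletions, among 2530, 2962 and 523 genes. With 1 control left out, the remaining library is assumed to vary like the clones, and 3 to 4 members were DEGs in ΔE2 and 5 in ΔSE12313-b, where SLC7A5 was lost.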
